A study of Mus musculus with 6 samples.

Results

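The epidermal kallikreins and their inhibitor Spink5 were examined in keratinocytes cultured from mice with and without DNMT1, the enzyme that copies DNA methylation to the new strand at replication. The members were chosen by name, as 8 kallikrein genes of the epidermis (Klk5, Klk6, Klk7, Klk8, Klk10, Klk11, Klk13 and Klk14) together with Spink5. They are 9 of the 43629 genes in the deposited count table, and all 9 were among the 16829 genes with enough reads to be tested. Epidermis was taken at P3, 3 days after birth, from 3 control and 3 Dnmt1Δ/Δep mice, and the keratinocytes were grown for 5 days, according to the labels and methods (a legend of the study gives a shorter time), in medium with 0.05 mM calcium and 8% chelated serum on dishes coated with collagen and fibronectin. Dnmt1Δ/Δep mice carry K5-Cre and 2 floxed Dnmt1 alleles, so that the deletion is driven by the promoter of Keratin 5 and is expected in cells of the basal epidermal lineage only, and other cells in a dish keep their Dnmt1. The study names mice with floxed Dnmt1 on a single allele or both, without Cre, as controls. Its survival plot also counts K5-Cre mice heterozygous for the floxed allele among the controls. The sample titles call the control libraries wt, and the labels do not say which genotype each has. All 6 libraries are labelled female, and each is poly(A)-selected RNA of a bulk culture.

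Kallikreins are secreted serine proteases encoded side by side in a gene cluster. In the upper epidermis KLK5, KLK7 and KLK14 cut corneodesmosin, desmoglein 1 and desmocollin 1, the proteins that hold corneocytes together, and so set the pace at which the stratum corneum is shed. KLK5 can activate itself and further pro-kallikreins, and LEKTI, the multidomain Kazal-type protein encoded by Spink5, holds KLK5, KLK7 and KLK14 in check. Loss of SPINK5 causes Netherton syndrome, a disease of premature desquamation and skin inflammation. KLK5 and KLK14 can also signal to keratinocytes by cleaving the receptor PAR2, the product of F2rl1.

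Reads on genes numbered between 53433121 and 115526598 per library, and 3 counts, read as the limit of a count of 0, corresponded to 0.0254 to 0.0558 CPM (counts scaled by library size and the TMM factor of edgeR). These limits cover counting error only. Dnmt1 itself fell in the Dnmt1Δ/Δep libraries, from 366 ± 37.2 to 51.6 ± 2.44 CPM (SD, n = 3 each), a log2 fold change of -2.83 with an adjusted p of 8.1e-05 (quasi-likelihood test of edgeR, p-values adjusted over all genes tested by the Benjamini-Hochberg method). Keratinocyte genes were abundant in every library, with the basal keratin gene Krt5 at 17900 ± 1180 CPM in the control group and 12700 ± 112 CPM in the Dnmt1Δ/Δep group. Among granular-layer genes, the profilaggrin gene Flg had at most 5 counts of uniquely mapped reads in any library, whereas Lor, encoding loricrin, was at 10.4 ± 2.98 and 33.8 ± 19.9 CPM and Ivl, encoding involucrin, at 15.7 ± 8.69 and 47.9 ± 18.4 CPM in the control and Dnmt1Δ/Δep groups. A gene is called higher or lower below when its adjusted p was at most 0.05 and its log2 fold change was at least 1 in size. By this rule neither Lor (adjusted p = 0.054, edgeR) nor Ivl (adjusted p = 0.061, edgeR) was called. All 6 libraries are bulk RNA, in which a change in the number of expressing cells and a change in the RNA of each such cell cannot be told apart.

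Of the 9 genes, 4 rose in Dnmt1Δ/Δep keratinocytes, namely Klk6, Klk8, Klk10 and Klk14, and none fell. Among all genes tested, 6.03% were called higher and 0.392% lower. At an unadjusted p of 0.05, no member was lower and 6 were higher, against 7.79% and 15.8% of all genes. DESeq2 and limma-voom each called 5 members higher, adding Klk13, and none lower. All 3 Dnmt1Δ/Δep libraries lay above all 3 control libraries for 6 members, against 18.2% of all genes, and the reverse was seen for no member, against 11.7% of all genes. The log2 fold changes of the members ranged from 0.84 to 5.59 with a median of 1.29, where the median over all genes tested was close to 0. With the replicate number as a block, which pairs the libraries by flow-cell lane, 4 members were called higher, with Klk13 in and Klk6 out. Klk10 and Klk14 were called under all 13 alternative settings. The calls of Klk6 and Klk8 depended on single libraries, and that of Klk6 was also lost with the block, as given for each gene.

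**Figure D1:**
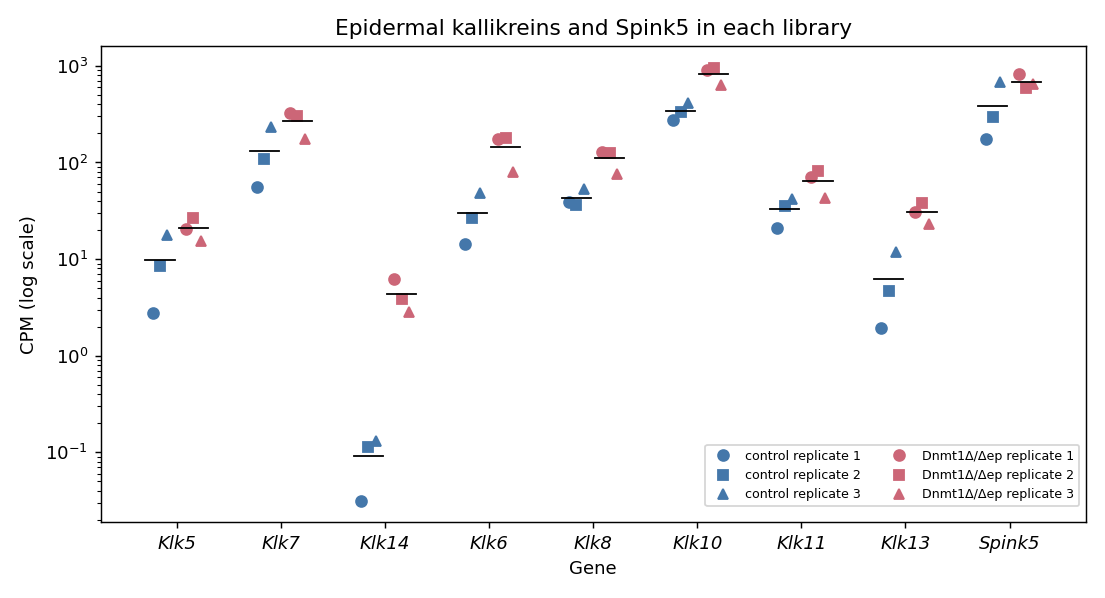
CPM of each member (log axis) in the 3 control (blue) and 3 Dnmt1Δ/Δep (red) libraries, with black bars for the group means and marker shapes for replicate numbers. Control replicate 3 is the highest control library for all 9 genes, and Klk14 sits between 0.0317 and 0.130 CPM in control and between 2.81 and 6.27 CPM in Dnmt1Δ/Δep libraries.

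Among the 3 kallikreins best known for desquamation, Klk14 showed the largest change of the 9 genes. Klk14, which encodes a trypsin-like protease, had 3, 11 and 7 counts in control replicates 1, 2 and 3. In Dnmt1Δ/Δep replicates 1, 2 and 3 it had 374, 333 and 331 counts. Every control library was thus close to the limit of detection, and every Dnmt1Δ/Δep library lay far above it. On the CPM scale this was 0.0916 ± 0.0526 against 4.31 ± 1.78 (SD, n = 3 each), a log2 fold change of 5.59 ± 0.54 (standard error) with an adjusted p of 0.0014 (edgeR). The size of this fold rests on the few control reads, and with single libraries left out it lay between 5.14 and 5.86 on the log2 scale.

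Klk5, the trypsin-like protease placed at the head of the cascade, was measured at 2.79, 8.41 and 17.9 CPM in control replicates 1, 2 and 3. Dnmt1Δ/Δep replicates 1, 2 and 3 had 20.6, 26.9 and 15.3 CPM. Control replicate 3 exceeded Dnmt1Δ/Δep replicate 3, so the groups overlapped. The log2 fold change of 1.11 ± 0.58 did not pass the test (adjusted p = 0.31, edgeR). Klk5 was called under none of the 13 alternatives, with log2 fold changes between 0.67 and 1.90 when single libraries were left out. Klk7, the chymotrypsin-like partner of KLK5, was at 56.3, 109 and 235 CPM in control replicates 1, 2 and 3. Its values in Dnmt1Δ/Δep replicates 1, 2 and 3 were 328, 306 and 174 CPM. Again the groups overlapped through the replicate 3 libraries, and the log2 fold change of 1.01 ± 0.49 did not pass the test (adjusted p = 0.27, edgeR). Without control replicate 3, Klk7 was called higher with a log2 fold change of 1.70 (adjusted p = 0.045, edgeR).

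The other 5 kallikreins are expressed in the epidermis as well, with less settled roles in shedding. Klk6, a trypsin-like protease first studied in the nervous system, had 14.4, 26.8 and 48.3 CPM in control replicates 1, 2 and 3 and 176, 180 and 80.6 CPM in Dnmt1Δ/Δep replicates 1, 2 and 3. No Dnmt1Δ/Δep library came down to the control range, although replicate 3 stood apart from the other two. Klk6 rose by a log2 fold change of 2.29 ± 0.48 (4.88-fold, adjusted p = 0.028, edgeR). The replicate numbers pair the libraries by flow-cell lane, and with the replicate number as a block the adjusted p was 0.052 at a log2 fold change of 2.39, which ends the call. The call was also lost without Dnmt1Δ/Δep replicate 1 (2.13, adjusted p = 0.095), without Dnmt1Δ/Δep replicate 2 (2.05, adjusted p = 0.086) and without control replicate 2 (2.21, adjusted p = 0.11), all by edgeR.

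Klk8, or neuropsin, a trypsin-like protease of the granular layer, was at 39.2, 35.9 and 53.6 CPM in control replicates 1, 2 and 3. It reached 128, 126 and 76.4 CPM in Dnmt1Δ/Δep replicates 1, 2 and 3. All Dnmt1Δ/Δep values exceeded all control values, and the control libraries of Klk8 were closer together than those of most other members. The log2 fold change was 1.36 ± 0.24 (adjusted p = 0.014, edgeR). The call was lost without Dnmt1Δ/Δep replicate 1 (1.24, adjusted p = 0.059), without Dnmt1Δ/Δep replicate 2 (1.20, adjusted p = 0.057) or without control replicate 2 (1.25, adjusted p = 0.065), in edgeR.

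Klk10 was the most abundant kallikrein, with 278, 336 and 409 CPM in control replicates 1, 2 and 3. Dnmt1Δ/Δep replicates 1, 2 and 3 held 900, 960 and 637 CPM, so that the lowest of them lay well above the highest control library. The log2 fold change was 1.29 ± 0.20 (2.44-fold, adjusted p = 0.0089, edgeR), with the smallest standard error of the 9 genes. Over the 13 alternatives the log2 fold change of Klk10 lay between 1.12 and 1.45, and the adjusted p was at most 0.048.

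Klk11 was at 20.9, 35.4 and 41.7 CPM in control replicates 1, 2 and 3, and at 70.1, 81.5 and 43.4 CPM in Dnmt1Δ/Δep replicates 1, 2 and 3. The groups did not overlap, but the lowest Dnmt1Δ/Δep library and the highest control library nearly met. Its log2 fold change of 0.99 ± 0.31 did not pass the test (adjusted p = 0.092, edgeR). Klk13 had 1.92, 4.65 and 11.9 CPM in control replicates 1, 2 and 3, against 30.8, 38.1 and 22.9 CPM in Dnmt1Δ/Δep replicates 1, 2 and 3. These groups were separate, with a 6.19-fold spread among the control libraries. The log2 fold change of 2.33 ± 0.59, slightly above that of Klk6, missed the threshold with an adjusted p of 0.053 in edgeR. Klk13 passed once the replicate number was a block (2.66, adjusted p = 0.047, edgeR), as it did with DESeq2 (adjusted p = 0.016) and limma-voom (adjusted p = 0.017), when genes with low counts were kept (adjusted p = 0.0036, edgeR), without control replicate 1 (1.90, adjusted p = 0.030, edgeR) and without control replicate 3 (3.21, adjusted p = 0.0093, edgeR).

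Spink5, the inhibitor, lies on another chromosome. In edgeR with all libraries and no block it had the lowest log2 fold change of the 9 genes. Klk11 was lower than Spink5 with the replicate number as a block (1.01 against 1.04) and with limma-voom (1.02 against 1.05). The same held without control replicate 3 (1.20 against 1.53) and without Dnmt1Δ/Δep replicate 2 (0.74 against 0.88). Control replicates 1, 2 and 3 of Spink5 had 175, 298 and 673 CPM. Its Dnmt1Δ/Δep replicates 1, 2 and 3 had 818, 585 and 646 CPM. Control replicate 3 fell inside the Dnmt1Δ/Δep range, whereas the other two control libraries lay below it. The log2 fold change was 0.84 ± 0.44 and did not pass the test (adjusted p = 0.31, edgeR). Without control replicate 3 it was 1.53 with an adjusted p of 0.021 in edgeR, which is a call. In all, 7 of the 9 members were called without control replicate 3, 5 without control replicate 1, and 2, Klk10 and Klk14, without control replicate 2, without Dnmt1Δ/Δep replicate 1 or without Dnmt1Δ/Δep replicate 2.

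Control libraries varied more than Dnmt1Δ/Δep libraries for most of these genes. The ratio of the highest to the lowest control library was 6.42 for Klk5, 4.17 for Klk7, 3.84 for Spink5 and 3.35 for Klk6, but 1.49 for Klk8 and 1.47 for Klk10. Among Dnmt1Δ/Δep libraries the same ratio ranged from 1.40 (Spink5) to 2.24 (Klk14). Control replicate 3 was the highest control library for 9 of 9 members, compared with 34.4% of all genes tested. Dnmt1Δ/Δep replicate 3 was the lowest of its group for 8 of 9 members, compared with 29.6% of all genes. Granular and cornified-layer genes showed the same libraries at the extremes: control replicate 3 was the highest control library for 21 of 26 tested, and Dnmt1Δ/Δep replicate 3 the lowest of its group for 22 of 26. Other lists did so in part, with 16 and 13 of 23 other epidermal proteases and 14 and 10 of 18 inhibitors outside the Kazal family. Melanocyte genes had 7 and 2 of 7, and basal genes 2 and 3 of 12.

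The ratios within replicate numbers differed accordingly. Of the 27 ratios of a Dnmt1Δ/Δep library to the control library of the same number, 24 were above 1, and the other 3 were those of Klk5, Klk7 and Spink5 in replicate 3. The median log2 ratio over the 9 genes was 2.54 in replicate 1, 1.68 in replicate 2 and 0.51 in replicate 3. Klk14 kept a log2 ratio of 4.43 in replicate 3, and Klk13 one of 0.95. The same medians over granular and cornified genes were 1.25, 0.83 and -0.41. Their part in the result for the kallikreins was not tested.

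**Figure D2:**
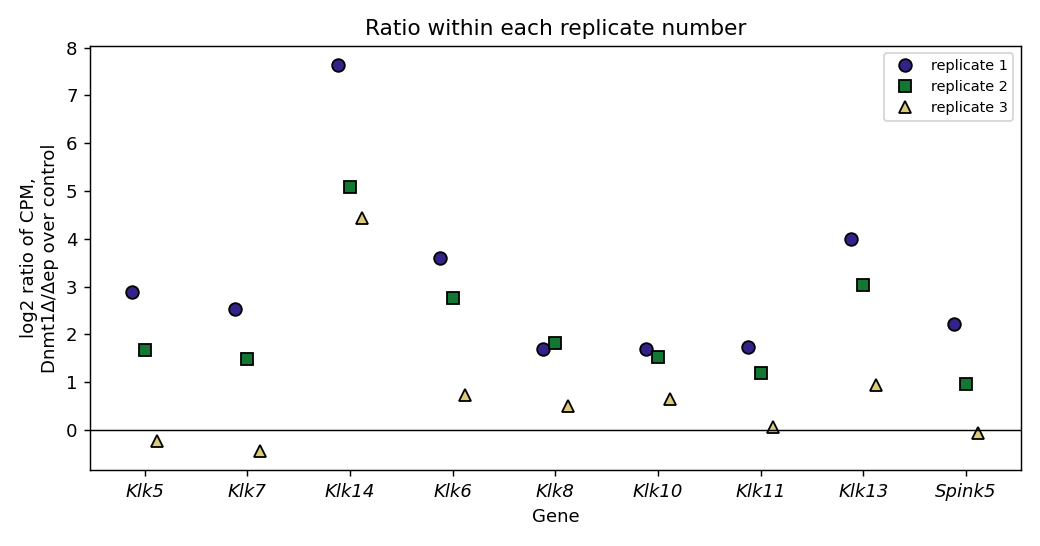
Log2 ratio of CPM in each Dnmt1Δ/Δep library over the control library with the same replicate number, for each member, with 0 marking equal values. Replicate 3 (triangles) gives the lowest ratio for all 9 genes, from -0.44 for Klk7 to 4.43 for Klk14, and the ratio of 7.63 for Klk14 in replicate 1 rests on 3 control counts.

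Levels of the 9 genes were compared with each other per length, as CPM per kilobase of exon (RPKM). In control libraries Klk10 was highest with 248 ± 47.7 RPKM, followed by Spink5 with 79.9 ± 54.2 and Klk7 with 70.3 ± 48.4. Klk8 (27.9 ± 6.12), Klk11 (22.3 ± 7.27) and Klk6 (19.7 ± 11.3) came next, and Klk5 (7.26 ± 5.72), Klk13 (2.68 ± 2.25) and Klk14 (0.0721 ± 0.0414) were lowest (SD, n = 3). Only the neighbours Klk10 and Spink5, and Klk13 and Klk14, had ranges over the control libraries that did not overlap. In Dnmt1Δ/Δep libraries Klk10 again led with 606 ± 125 RPKM, ahead of Spink5 (143 ± 25.2) and Klk7 (142 ± 44.0). Klk6 stood before Klk8 there, with 96.1 ± 37.1 and 71.6 ± 19.0 RPKM, but their ranges overlapped. Klk11 (44.3 ± 13.3), Klk5 (15.7 ± 4.35), Klk13 (13.3 ± 3.29) and Klk14 (3.39 ± 1.40) completed the order, with separate ranges between Klk10 and Spink5, Klk11 and Klk5, and Klk13 and Klk14. Klk14 thus remained the least abundant of the 9 in both groups.

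The sum of the 8 kallikreins was 285, 375 and 536 RPKM in control replicates 1, 2 and 3 and 1110, 1160 and 712 RPKM in Dnmt1Δ/Δep replicates 1, 2 and 3, without overlap. Klk10 made up 64.0% ± 7.87 of this sum in control and 61.6% ± 3.21 in Dnmt1Δ/Δep libraries, a difference smaller than the spread between libraries. The share of Klk14 went from 0.0172% ± 0.00763 to 0.339% ± 0.0950. Klk5, Klk7 and Klk14, named above among the proteases that LEKTI holds in check, were then set against Spink5 within each library. Most of their sum was Klk7, with a mean of 70.3 of 77.7 RPKM in control and 142 of 161 RPKM in Dnmt1Δ/Δep libraries. Klk14 gave 0.0721 and 3.39 RPKM, so its change hardly moves this ratio. The summed RPKM of Klk5, Klk7 and Klk14 was 0.868, 1.02 and 0.977 times that of Spink5 in control replicates 1, 2 and 3. The same ratio was 1.13, 1.51 and 0.780 in Dnmt1Δ/Δep replicates 1, 2 and 3. The groups overlapped, with means of 0.957 ± 0.0801 and 1.14 ± 0.364 (SD, n = 3 each), a difference of 0.183 with p = 0.50 in a two-sided exact permutation test, for which 0.10 is the smallest p that 3 against 3 libraries allow.

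**Figure D3:**
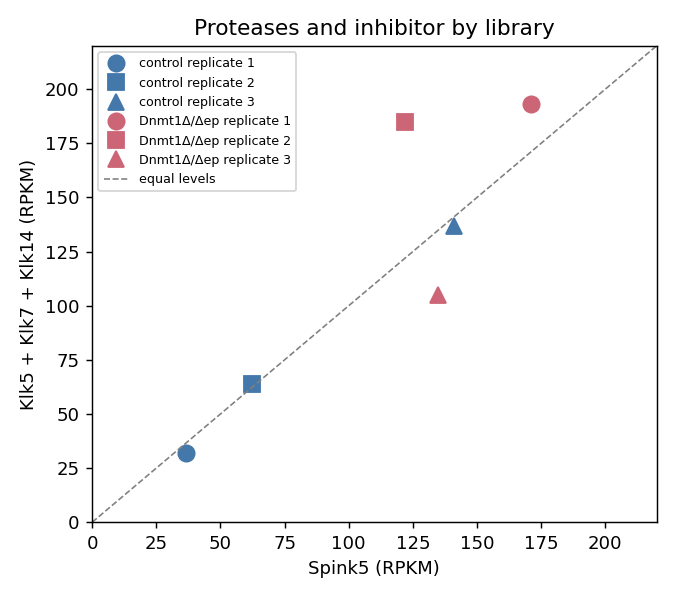
Summed RPKM of Klk5, Klk7 and Klk14 against the RPKM of Spink5 in each library, with a dashed line at equal levels. Klk7 makes up most of the sum in both groups. The 3 control libraries lie close to the line (ratios of 0.868 to 1.02), and the Dnmt1Δ/Δep libraries lie on both sides of it (ratios of 0.780 to 1.51).

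The 8 kallikreins lie on the forward strand of chromosome 7 (GRCm38, GENCODE M21) in the order Klk14, Klk13, Klk11, Klk10, Klk8, Klk7, Klk6 and Klk5. Klk14 (ENSMUSG00000044737) spans chr7:43690418-43695536, Klk10 (ENSMUSG00000030693) chr7:43781035-43785410, Klk8 (ENSMUSG00000064023) chr7:43797577-43803826, Klk6 (ENSMUSG00000050063) chr7:43824499-43832030 and Klk5 (ENSMUSG00000074155) chr7:43841971-43851181. From the start of Klk14 to the end of Klk5 are 161 kb, which also hold Klk12 and Klk9, so that 10 kallikrein genes lie in this stretch. All 10 were tested and 6 rose, the 4 members together with Klk9 and Klk12. Klk9 rose from 4.05 ± 1.20 to 28.8 ± 10.9 CPM (log2 fold change 2.84, adjusted p = 0.0039, edgeR). Klk12 had 6, 3 and 4 counts in control replicates 1, 2 and 3 and 52, 40 and 21 in Dnmt1Δ/Δep replicates 1, 2 and 3 (log2 fold change 3.16, adjusted p = 0.035, edgeR).

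The remaining 17 kallikrein genes of the cluster, on the far side of Klk5, had 5 or fewer counts in every library, and 13 of them had none. Most of these are closely similar Klk1b copies, for which uniquely mapped reads can be lost. Of the nearest 5 tested genes on each side of the cluster, Vsig10l, 379 kb before the start of Klk5, rose (log2 fold change 1.26, adjusted p = 0.016, edgeR), and no other was called. The gene next to Klk14, Ctu1, which takes part in the modification of transfer RNA, had a log2 fold change of 0.12 (adjusted p = 0.68, edgeR). The sources used here do not state whether reads were counted by strand, and the antisense gene 2310002F09Rik shares 22.6% of the exon length of Klk14 and 24.8% of that of Klk8. This gene, picked after its values were seen, had between 51 and 111 counts per library and a log2 fold change of -0.12 (adjusted p = 0.86, edgeR).

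**Figure D4:**
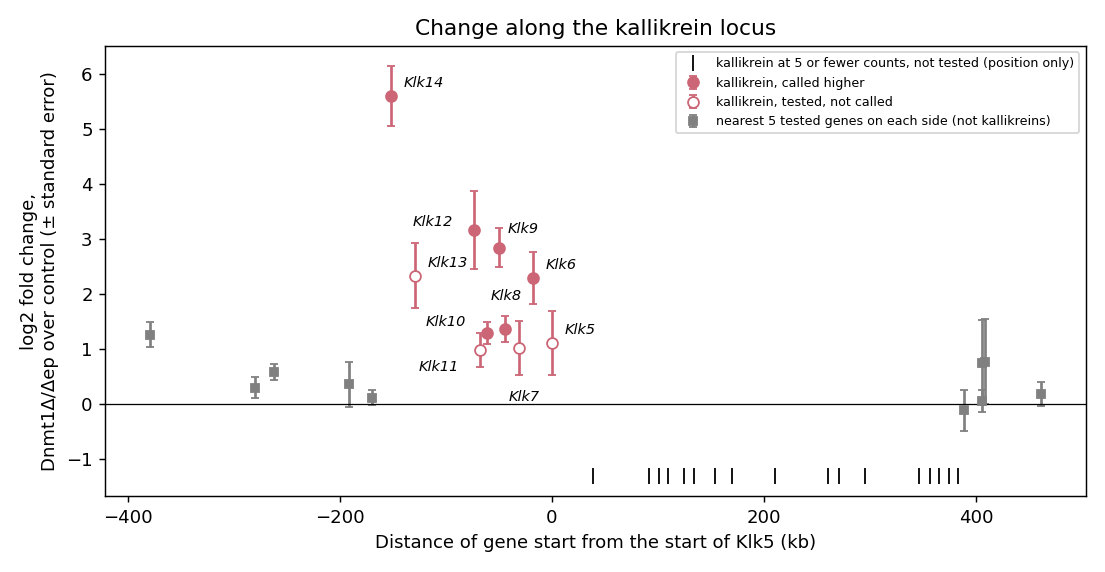
Log2 fold change (Dnmt1Δ/Δep over control, with standard errors) of kallikreins and flanking genes by distance of the gene start from the start of Klk5 in kb. The 10 tested kallikreins, from Klk14 to Klk5, all lie above 0, with 6 called higher (filled), and the ticks on the right mark the 17 kallikreins that were not tested.

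DNA methylation in mammals sits on CG dinucleotides, so the bases before the start of each member that rose on chromosome 7 are shown with every CG in capitals. Each run holds the 250 bases before a start given by RefSeq (GRCm38.p6), 5′ to 3′ on the forward strand, and RefSeq gives a pair of starts for Klk6. The windows are chr7:43690168-43690417 for Klk14, chr7:43780804-43781053 for Klk10, chr7:43797327-43797576 for Klk8, and chr7:43824294-43824543 and chr7:43825200-43825449 for Klk6.
Klk14: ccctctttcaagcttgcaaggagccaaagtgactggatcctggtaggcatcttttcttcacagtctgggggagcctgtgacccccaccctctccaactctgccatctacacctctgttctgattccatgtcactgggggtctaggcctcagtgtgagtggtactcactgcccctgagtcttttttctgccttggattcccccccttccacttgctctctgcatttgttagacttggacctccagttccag
Klk10: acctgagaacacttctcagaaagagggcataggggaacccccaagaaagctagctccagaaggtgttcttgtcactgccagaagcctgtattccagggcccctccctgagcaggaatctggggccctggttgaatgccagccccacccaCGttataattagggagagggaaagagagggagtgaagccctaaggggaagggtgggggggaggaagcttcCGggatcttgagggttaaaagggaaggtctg
Klk8: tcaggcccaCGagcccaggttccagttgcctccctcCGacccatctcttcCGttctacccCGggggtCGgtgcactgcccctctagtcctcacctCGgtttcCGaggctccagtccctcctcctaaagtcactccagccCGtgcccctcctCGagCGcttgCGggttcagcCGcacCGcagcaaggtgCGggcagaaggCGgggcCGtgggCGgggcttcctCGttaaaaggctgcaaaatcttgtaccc
Klk6, upstream start: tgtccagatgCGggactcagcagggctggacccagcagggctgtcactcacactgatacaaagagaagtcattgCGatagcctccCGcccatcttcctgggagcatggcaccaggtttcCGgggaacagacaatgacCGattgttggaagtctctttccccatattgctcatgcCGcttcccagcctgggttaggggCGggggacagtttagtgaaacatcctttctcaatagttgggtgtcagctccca
Klk6, downstream start: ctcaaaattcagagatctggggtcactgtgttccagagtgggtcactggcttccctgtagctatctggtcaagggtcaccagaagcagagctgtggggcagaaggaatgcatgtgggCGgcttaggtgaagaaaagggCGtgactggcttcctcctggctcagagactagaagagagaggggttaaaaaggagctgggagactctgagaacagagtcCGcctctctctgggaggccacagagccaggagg
The Klk14 window holds 0 CG, as do 7.87% of the 32851 RefSeq windows of this length, and the Klk8 window holds 18, a number reached by 21.7% of windows. The Klk10 window holds 2 CG and the Klk6 windows hold 7 and 3, around or below the median of 6 over all windows. The 4 kallikreins that rose therefore cover the whole range of 0 to 18 CG found in the 10 windows of the 8 kallikreins. The motifs TGANTCA, bound by AP-1 factors, and TATAAA, the TATA box, were searched on both strands. Neither was found in the 10 windows, and with 6.75% of all windows holding the first and 12.4% the second, this is near the background for so few windows. Methylation itself was not measured in these libraries.

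Among 11 further Kazal-type inhibitor genes, which share the inhibitor domain of LEKTI, 5 were tested, 2 rose and 1 fell. Spink12 had 0, 5 and 3 counts in control replicates 1, 2 and 3 and 173, 81 and 69 in Dnmt1Δ/Δep replicates 1, 2 and 3 (adjusted p = 0.016, edgeR). Spink6, whose product also inhibits epidermal kallikreins, rose from 2, 1 and 1 counts to 19, 20 and 16 (adjusted p = 0.012, edgeR), which is a very low level in both groups. Spink8 fell from 2.03 ± 0.591 to 0.440 ± 0.0911 CPM (log2 fold change -2.20, adjusted p = 0.0069, edgeR).

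Of 12 genes for substrates of the kallikreins and their partners in the corneodesmosome, all tested, 1 rose and none fell, with log2 fold changes from -0.93 to 1.21 and a median log2 fold change of -0.21, and 2 were higher and 2 lower at an unadjusted p of 0.05 in edgeR. DESeq2 and limma-voom called none lower either. The one that rose was the desmosomal cadherin gene Dsc2, from 91.5 ± 19.1 to 212 ± 31.5 CPM (log2 fold change 1.21, adjusted p = 0.0075, edgeR). Cdsn, which encodes corneodesmosin, went from 268 ± 153 CPM in control to 534 ± 167 CPM in Dnmt1Δ/Δep libraries without passing the test (adjusted p = 0.23, edgeR). Its log2 ratios in replicates 1, 2 and 3 were 2.27, 1.39 and -0.29, lowest and below 0 in replicate 3 as for Klk7. The desmoglein 1 genes Dsg1a, Dsg1b and Dsg1c had log2 fold changes of -0.93, -0.41 and 0.95, with adjusted p-values of 0.36, 0.52 and 0.15 in edgeR, and Dsg1c had few reads (25 to 84 counts). Dsc1 had -0.57 (adjusted p = 0.68, edgeR). The log2 ratios in replicates 1, 2 and 3 changed sign for Dsg1a (1.06, -0.96 and -1.88), Dsg1b (0.67, -0.52 and -1.06) and Dsc1 (1.72, -0.19 and -1.77). The genes of the list with the most reads, the plaque genes Dsp, Pkp1 and Jup, had log2 fold changes of -0.19, -0.60 and -0.23 and were not called.

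Other epidermal proteases showed rises in 5 of 23 genes tested and no falls in edgeR, with a median log2 fold change of 0.39. At an unadjusted p of 0.05, 11 were higher and 1 was lower, and DESeq2 called 6 higher and limma-voom 5, with none lower in either. These were the membrane-bound or secreted serine protease genes Prss27 (3.55 ± 0.847 to 40.0 ± 17.0 CPM, log2 fold change 3.50, adjusted p = 0.0021), Prss22 (2.39, adjusted p = 0.0074), Tmprss11e (2.70, adjusted p = 0.033) and Tmprss11d (3.32, adjusted p = 0.050, at the threshold), and the urokinase gene Plau (1.85, adjusted p = 0.0014), all by edgeR. St14, which encodes matriptase, an activator of pro-kallikreins, averaged 235 ± 18.0 CPM in the control group and 306 ± 28.4 CPM in the Dnmt1Δ/Δep group and did not pass (log2 fold change 0.39, adjusted p = 0.072, edgeR). Prss8, encoding prostasin, which acts with matriptase, had a log2 fold change of -0.06 (adjusted p = 0.91, edgeR). The proteases of the list with the most reads, the lysosomal cathepsin genes Ctsd, Ctsl and Ctsb, were not called.

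Of 18 tested inhibitor genes outside the Kazal family, 2 rose and none fell in edgeR, with a median log2 fold change of 0.13. At an unadjusted p of 0.05, 4 were higher and 2 lower, while DESeq2 called 4 higher and 1 lower and limma-voom 2 higher and none lower. Slpi, an inhibitor of serine proteases of leukocytes that is reported to act on kallikrein 7 as well, rose from 60.0 ± 32.6 to 459 ± 133 CPM (log2 fold change 2.94, adjusted p = 0.0069, edgeR). Wfdc5, a gene of the same WAP domain family, rose from 0.693 ± 0.564 to 4.14 ± 1.58 CPM (log2 fold change 2.62, adjusted p = 0.043, edgeR), a call that was lost with the replicate number as a block (2.80, adjusted p = 0.062). The inhibitor gene with the most reads, Serpinb5, was at 605 ± 128 and 417 ± 25.3 CPM and did not pass (log2 fold change -0.54, adjusted p = 0.084, edgeR).

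Among 7 tested receptors and mediators that kallikreins act on or through, 1 rose and none fell in edgeR, where 3 were higher and none lower at an unadjusted p of 0.05, and DESeq2 and limma-voom called none lower. The replicate block and DESeq2 each called 2 higher, adding the receptor gene F2rl2 (2.41, adjusted p = 0.034 with the block in edgeR). The gene that rose was Il1a, the gene of interleukin-1α, with 5.52 ± 3.64 CPM in the control group and 84.1 ± 31.5 CPM in the Dnmt1Δ/Δep group (log2 fold change 3.93, adjusted p = 0.0057, edgeR). F2rl1, the PAR2 gene, had 176 ± 27.3 and 312 ± 101 CPM, without overlap between the groups, but did not pass (log2 fold change 0.83, adjusted p = 0.069, edgeR). Tslp, a cytokine gene downstream of PAR2 in skin, had a log2 fold change of 0.07 (adjusted p = 0.98, edgeR) over control libraries that spread widely, with 88.8 ± 95.1 CPM.

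Of the 14 calls among these genes and the other kallikreins, 8 held under all 13 alternative settings, namely Klk9, Spink8, Dsc2, Prss22, Prss27, Plau, Slpi and Il1a. The calls of Klk12, Spink6, Spink12, Tmprss11d, Tmprss11e and Wfdc5 were lost in edgeR without control replicate 2, and all of these but Spink12 also without Dnmt1Δ/Δep replicate 1 or without Dnmt1Δ/Δep replicate 2. Klk12 was in addition lost without either of the other control libraries, Tmprss11d without control replicate 3, and Tmprss11d, Tmprss11e and Wfdc5 without Dnmt1Δ/Δep replicate 3. Klk12 was not called with limma-voom, Tmprss11d was not called with upper-quartile scaling, and Klk12, Spink6, Tmprss11d and Wfdc5 were not called where a mean RPKM of at least 1 was required. In total, the calls among these genes numbered 8 without control replicate 2, and 9 when Dnmt1Δ/Δep replicate 1 was left out.

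Differentiation markers were listed beside the kallikreins, which belong to the upper layers. Of 26 granular and cornified genes tested, 4 rose and none fell, with a median log2 fold change of 0.52, and 10 were higher and 1 was lower at an unadjusted p of 0.05 in edgeR. DESeq2 called 7 higher and limma-voom 5, with none lower in either, and the replicate block 3 higher and 1 lower. Those that rose were Alox12b, a lipoxygenase gene of the lipid barrier (2.10, adjusted p = 0.0022), the small proline-rich gene Sprr3 (3.23, adjusted p = 0.0069), Cnfn, encoding cornifelin (1.97, adjusted p = 0.032), and Nccrp1 (2.03, adjusted p = 0.034), all by edgeR. Under the replicate block, Cnfn (1.85, adjusted p = 0.070) and Nccrp1 (2.11, adjusted p = 0.054) were not called, and without control replicate 2, Dnmt1Δ/Δep replicate 1 or Dnmt1Δ/Δep replicate 2 neither was. Cnfn was also not called with limma-voom or without control replicate 1. The summed CPM of the list ranged from 1270 to 2730 in control and from 2160 to 3500 in Dnmt1Δ/Δep libraries, overlapping through the replicate 3 libraries. None of the 10 spinous genes was called by edgeR or limma-voom, although 4 were lower at an unadjusted p of 0.05 and 3 were called lower by DESeq2, and the median log2 fold change was -0.12. The keratin genes Krt1 (-2.30, adjusted p = 0.085, edgeR) and Krt10 (-1.58, adjusted p = 0.069, edgeR) had the lowest values, and the genes with the most reads, Dmkn, Sbsn and Krtdap, were at 0.07, 0.22 and -0.75. Of 12 basal genes, Krt15 fell (log2 fold change -3.66, adjusted p = 0.019, edgeR), a call that was lost with limma-voom and without control replicate 2 or any single Dnmt1Δ/Δep library. At an unadjusted p of 0.05, 5 basal genes were lower and 1 was higher in edgeR. Krt5 (-0.50, adjusted p = 0.038), Krt14 (-0.61, adjusted p = 0.028), Col17a1 (-0.55, adjusted p = 0.035) and Dst (-0.76, adjusted p = 0.013) passed the adjusted p in edgeR but not the fold threshold. The list summed to 31100 to 35600 CPM in the control group and 25500 to 26000 CPM in the Dnmt1Δ/Δep group. Of 9 tested markers of activated keratinocytes, S100a8 and S100a9 rose by 1.50 and 1.48 on the log2 scale (adjusted p = 0.025 and 0.045, edgeR), and the keratin genes Krt6a, Krt16 and Krt17 were not called. The call of S100a8 was lost without Dnmt1Δ/Δep replicate 1 or 2, and that of S100a9 without each single library other than control replicate 3 and when a mean RPKM of at least 1 was required. The part of these markers in the kallikrein values was not tested.

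Markers of some other cell types were also higher in the Dnmt1Δ/Δep group. Csf1r and Itgam were called higher among 6 tested genes of macrophages and dendritic cells, which summed to 50.9 to 66.6 CPM in the control group and 105 to 121 CPM in the Dnmt1Δ/Δep group, most of it Cd68. The other 7 genes of this list, among them Adgre1, Tyrobp, Lyz2 and Ptprc, had at most 12 counts in any library and were not tested. Itgam shares 68.7% of its exon length with Gm49368 on the same strand, and Csf1r 15.1% with Hmgxb3 on the other. The call of Csf1r was lost with the replicate number as a block (2.61, adjusted p = 0.053, edgeR) and without Dnmt1Δ/Δep replicate 1 or either replicate 3 library, and that of Itgam without each single library other than control replicate 3. Neither was called when a mean RPKM of at least 1 was required. Pecam1 and Cdh5 were called among 4 tested endothelial genes, with overlapping sums of 5.29 to 17.1 and 14.5 to 21.7 CPM. None of 9 fibroblast genes was called, with overlapping sums of 66.6 to 121 and 101 to 264 CPM, and none of 7 melanocyte genes, with sums of 224 to 573 and 688 to 912 CPM, although 3 and 4 of them were higher at an unadjusted p of 0.05 in edgeR. DESeq2 called 1 gene higher in each of these lists, limma-voom none, and the replicate block 2 melanocyte genes. Neutrophil genes summed to 0.159 to 0.521 CPM in the control group and 0.576 to 1.28 CPM in the Dnmt1Δ/Δep group, with Csf3r and Retnlg at 0. Their 1 tested gene, Cxcr2, had a log2 fold change of 1.95 (adjusted p = 0.054, edgeR) and was called by DESeq2 (adjusted p = 0.0028). T cell genes summed to at most 3.17 and 4.14 CPM in these groups, with overlap and with Cd3g at 0, and mast cell genes to at most 0.197 CPM with Cpa3, Mcpt4 and Fcer1a at 0. Merkel cell genes summed to 1.36 to 1.51 and 2.12 to 4.81 CPM, and of 5 tested none was called, with 1 higher at an unadjusted p of 0.05 in edgeR and 1 called by DESeq2 and by the replicate block. Krt15 also stands in the list of hair follicle genes, where it was the 1 call of edgeR among 10 tested. In that list the replicate block and DESeq2 called 1 gene higher and 1 lower, and limma-voom 1 higher and none lower. The simple-epithelium keratin genes Krt8 and Krt18 rose by 3.36 and 2.67 on the log2 scale (adjusted p = 0.0029 and 0.029, edgeR) among 6 tested gland genes. The replicate block and DESeq2 each called 3 of these genes higher, adding Krt19 (1.89, adjusted p = 0.011 with the block in edgeR), and limma-voom 2. The call of Krt18 was lost without Dnmt1Δ/Δep replicate 1 or 2 or control replicate 2 or 3. The part of these cells in the kallikrein values was not tested.

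The genes whose profile over the 6 libraries came nearest to each member were looked up among 12463 genes with a mean of at least 1 CPM, by the root mean square difference of centred log2 CPM. Klk10 was nearest to Dsc2 (0.084), Klk11 to Bspry (0.101), Klk5 to Pdzk1ip1 (0.113), Klk7 to Krtap3-2 (0.117) and Klk8 to Car5b (0.132). Klk6 was nearest to the cornified-layer gene Nccrp1 (0.154), Klk13 to Chil1 (0.162) and Spink5 to the serine protease gene Tmprss11f (0.188). No gene came close to Klk14, for which the nearest, Fabp4, was at 0.382. Among the members themselves Klk8 and Klk10 were the nearest pair (0.142), Klk5 and Klk7 differed by 0.287, and Spink5 and Klk7 by 0.294. All of these profiles share the same 6 libraries and the contrast between the groups, so the distances describe these libraries only.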

How the data were processed

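The data are RNA-seq of keratinocyte cultures of 3 control and 3 Dnmt1Δ/Δep mice. The authors trimmed adapters, filtered ribosomal reads, aligned with STAR and counted reads per gene with the union mode of HTSeq, and the deposited values are raw counts (whole numbers) for 43629 Ensembl genes, of which 42548 matched a symbol. The submitters' notes name GRCm38, whereas the methods name a human build for genes. The 5 entries that name no gene (8.73% to 12.9% of counted reads) were left out. The table of repeat counts and the authors' tables of comparisons, which hold fold changes and p-values, were not used.

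Counts were tested with edgeR 4.0.16 (quasi-likelihood, TMM, filterByExpr with minimum counts of 10 and 15, no block) in R 4.3.3. Benjamini-Hochberg adjustment covered all 16829 genes tested. Calls needed a log2 fold change of 1 in size besides an adjusted p of 0.05. Standard errors are log2 fold changes divided by the root of F. CPM are counts over library size and TMM factor, and RPKM use exon lengths of GENCODE M21. Profiles used log2(CPM + 0.05). Figures were drawn with matplotlib 3.10.9. The code was checked on simulated counts. p-values measure the spread between libraries, 1 mouse each according to the labels. Alternatives were a replicate block, DESeq2 1.42.0, limma-voom (limma 3.58.1), RLE and upper-quartile scaling, no filter, a mean RPKM of at least 1, and leaving out each library.

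Replicates of 1 number share a flow-cell lane in the header of the count table, and their deviations from the group means correlated across genes (0.417, 0.268 and 0.293 for replicates 1, 2 and 3), so the numbers pair the libraries. Named genes are the members, Dnmt1, every called gene of the lists, up to 3 with the highest CPM in each, and the nearest profile of each member. St14, Prss8, Cdsn, Dsg1a, Dsg1b, Dsg1c, Dsc1, Flg, Lor, Ivl, F2rl2, Krt1, Krt10, Krt19, Col17a1, Dst, Adgre1, Tyrobp, Lyz2 and Ptprc were named besides, after their values were seen. So were the genes of other cell types given as at 0. The flanking genes are the 5 nearest tested on each side. Members and lists were chosen with earlier results of these data known.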

Additional observations from a re-analysis of the deposited data

How the results depend on the processing

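All 9 members had a positive log2 fold change in all 13 alternatives. The calls of Klk10 and Klk14 held in all 13, and Klk5 and Klk11 were called in none. With the replicate block, which pairs the libraries, 1173 genes rose and 95 fell, and 4 members rose, with Klk13 (2.66) in and Klk6 (2.39) out, and it changed the call of no other member. Klk13 was also called with DESeq2 (2.29), with limma-voom (2.78) and without a filter on low counts (2.30). The number of genes called higher, 1014, was 391 at a mean RPKM of at least 1, where fewer genes are tested, and the 66 called lower became 122 with DESeq2, 107 without a filter and 35 at that RPKM. Leaving out 1 library at a time gave 559 to 1183 genes called higher, 15 to 180 called lower, 2 to 7 members called higher and 8 to 17 calls among the other desquamation genes (14 with all libraries). The lowest counts came without control replicate 2 (559, 15, 2 and 8) and Dnmt1Δ/Δep replicate 1 (591, 15, 2 and 9), and the highest count of genes called lower without control replicate 1 (180). The log2 fold changes then ranged from 1.95 to 2.82 for Klk6, 0.67 to 1.90 for Klk5, 0.65 to 1.70 for Klk7, 1.20 to 1.57 for Klk8, 1.90 to 3.21 for Klk13 and 0.49 to 1.53 for Spink5. These fits have fewer samples, and any further cause was not tested. No scaling moved the median of all genes by more than 0.03 on the log2 scale.

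With 3 libraries a group, the wide control spread of Klk5, Klk7, Klk13 and Spink5 limits what can be called, and read depth limits Klk14, Klk12, Spink6 and Spink12 in control libraries.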
